A study of Mus musculus with 6 samples.

Results

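Transcripts of 9 genes of the Notch pathway were examined in mouse ovarian surface epithelium cells sorted by aldehyde dehydrogenase (ALDH) activity. The genes were the receptors Notch1, Notch2 and Notch3, the ligands Jag1, Jag2 and Dll1, and the target genes Hes1, Hey1 and Heyl. All probe sets annotated to exactly 1 of these symbols were taken, which gave 17 of the 34945 probe sets with a single gene, for 9 of 18193 genes. Of the 17, 15 passed a filter on low signal and were tested, and every gene had at least 1 tested probe set. Cells came from the ovaries of virgin FVB/N mice of 8 weeks, for which the labels name no transgene or other allele, and were cultured for 24 hours. Before sorting they were stained with ALDEFLUOR, a fluorescent ALDH substrate, and sorted by flow cytometry against unstained cells and cells treated with the inhibitor diethylaminobenzaldehyde. Each of 3 pools of 10 mice gave 1 Affymetrix Mouse Genome 430 2.0 array of ALDH-positive and 1 of ALDH-negative cells, 6 arrays in all, so the values describe pooled animals and briefly cultured cells. The comparison addressed which genes distinguish cells of high ALDH activity from the other cells of the same pool.

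Notch proteins are receptors in the cell membrane that are activated by ligands of the Delta and Jagged families on a neighbouring cell. Ligand binding leads to cleavage by an ADAM protease and then by gamma-secretase, and the freed intracellular part enters the nucleus, where it joins the DNA-binding protein Rbpj and a Mastermind coactivator at target genes. Hes and Hey proteins, the best known products of these targets, are transcriptional repressors of the basic helix-loop-helix class. In the ovary the pathway is known from signalling between oocytes and granulosa cells and from blood vessels and their mural cells, in which Notch3 and Heyl are characteristic genes.

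Values below are log2 signals after quantile normalization, which gives all arrays the same distribution, and differences are ALDH-positive minus ALDH-negative within a pool. A difference of 1 is a doubling. The filter removed the probe sets in the lowest 40% by mean over the 6 arrays, a log2 level of 2.73. Readings near or under that level were treated as weak, and the background itself was not measured. The array of ALDH-negative cells of pool 2 was unlike the rest: it correlated at 0.558 to 0.679 with the other arrays across probe sets, and those correlated at 0.850 to 0.974 with each other. Differences of the Notch and other pathway genes are therefore given with and without pool 2. The pool 3 arrays both had little signal at the 5' control of the glycolytic gene Gapdh, 6.63 and 5.20 as deposited against 7.92 to 10.30 on the other arrays. At the controls of the actin gene Actb the ALDH-negative array of pool 2 was lowest, with 4.81 (5') and 5.03 (3') as deposited. The other arrays read 8.58 to 11.32 and 9.56 to 11.04 there. Aldh1a2, a retinaldehyde dehydrogenase, separated the fractions in every pool, with 2.09 to 2.87 in the ALDH-negative fraction and 7.64 to 7.97 in ALDH-positive cells. The fractions overlapped for Aldh1a1, a relative of it, which read 8.85, 2.15 and 9.39 in the ALDH-negative fraction of pools 1 to 3 and 9.60, 9.08 and 10.00 in ALDH-positive cells. Its difference was 2.76 (SE 1.25; limma adjusted p = 0.895), and 0.68 without pool 2 (SE 0.40; adjusted p = 0.909).

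The labelled cell type was checked against markers of the surface epithelium and mesothelium. All 11 listed markers were tested, and all 11 read higher on each ALDH-positive array than on any ALDH-negative array. Of all tested probe sets 3.49% did so. The median difference of the 11 was 3.61, and 3.91 without pool 2. All 11 had an unadjusted p under 0.05 by limma, as had 2.45% of all tested probe sets, but none passed an adjusted p of 0.05. The brightest of them, Krt8, a keratin of simple epithelium, read 5.90 to 8.07 in the ALDH-negative fraction and 8.71 to 9.31 in ALDH-positive cells. Others were dimmer: 2 of the 11, Bnc1 and Lrrn4, had an ALDH-negative mean under the filter level, at 1.78 and 1.83. No ALDH-positive mean of the 11 was under it. The summed level of the 11 markers was 42.51 to 46.06 in the ALDH-negative fraction and 82.24 to 86.67 in ALDH-positive cells. Hsd3b1, a steroidogenic enzyme of theca and luteal cells, was bright in pools 1 and 3 whatever the fraction, at 10.42 and 10.11 in the ALDH-negative fraction and 10.09 and 9.67 in ALDH-positive cells. In pool 2 Hsd3b1 read 7.31 in the ALDH-negative fraction and 10.22 in ALDH-positive cells. In such mixed samples, fewer cells of a type and less RNA per cell cannot be told apart.

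No Notch gene differed between the fractions by the test. None of the 15 tested probe sets passed limma's adjusted p of 0.05 (0 of 27022 probe sets passed, 0%), and none had an unadjusted p under 0.05, which 661 of 27022 probe sets had (2.45%). Adjusted p-values of the 15 lay between 0.895 and 0.995. Without pool 2, again none passed (0 of 27022, 0%), and none of the 15 was among the 1232 probe sets with an unadjusted p under 0.05 (4.56%). The standard errors of the 15 were 0.64 to 1.00 over the 3 pools and 0.40 to 0.47 without pool 2, and the 95% intervals without pool 2 reached from -1.83 at the lowest to 2.01 at the highest.

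The averages over 3 pools followed the ALDH-negative array of pool 2. Of the 15 tested probe sets, 13 read higher on it than on any of the other 5 arrays, which was so for 37.4% of all tested probe sets, and none read lowest on it, as 35.1% of all did. All 15 lay lower in ALDH-positive cells of pool 2, with differences from -4.33 to -0.53 and a median of -1.75. Pools 1 and 3 gave differences of mixed sign, of which only 1 in each pool exceeded 1 in size. Without pool 2 the differences of the 15 ran from -0.65 to 0.95, with 9 above and 6 below 0, and 8 signs turned. At the level of genes, represented by their tested probe set of highest mean, 9 of 9 lay lower in the mean over 3 pools, although Notch2 and Jag1 lay higher in the values as deposited and Notch2, Jag1 and Hes1 in median-centred arrays. The median over the 9 genes was -0.63, beside -0.08 for all 12814 genes tested. Without pool 2 it was 0.05, beside 0.04.

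**Figure D1:**
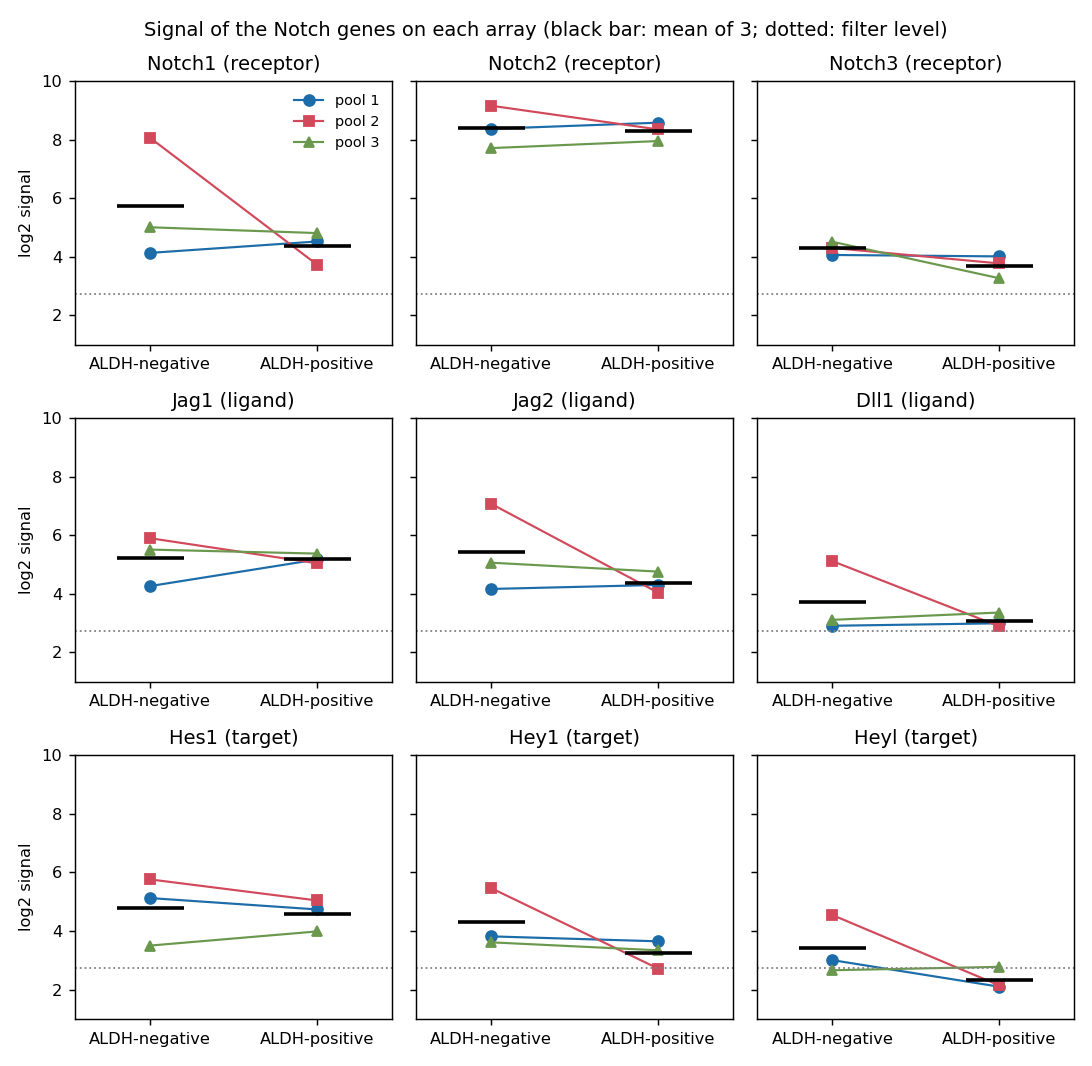
Log2 signal (vertical axis) of the probe set that stands for each of the 9 Notch genes on the 6 arrays, by fraction; lines join the arrays of a pool, black bars are means of 3, and the dotted line is the filter level of 2.73. The red square of ALDH-negative cells in pool 2 is the highest point in every panel except that of Notch3.

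Among the receptors, Notch2 overlapped between the fractions with both of its probe sets. Its brighter probe set (1455556_at) read 8.37, 9.16 and 7.71 in ALDH-negative cells of pools 1, 2 and 3, and 8.58, 8.35 and 7.95 in ALDH-positive cells. Within each fraction pool 3 was lowest. The difference was -0.12 (SE 0.66, n = 3 pools; limma adjusted p = 0.971), and 0.23 without pool 2 (SE 0.40, 95% interval -0.77 to 1.22). The second Notch2 probe set (1451889_at) was likewise highest on the ALDH-negative array of pool 2. It read 5.91, 6.76 and 5.79 in the ALDH-negative fraction and 6.07, 5.91 and 5.94 in ALDH-positive cells, and its 5 arrays other than the ALDH-negative array of pool 2 spanned only 0.29. The pool differences of both probe sets were 0.16 to 0.24 in pools 1 and 3 after quantile normalization. As deposited, 1451889_at gave -0.04 in pool 1. In pool 2 they were -0.81 and -0.85 after quantile normalization but 0.96 and 0.55 as deposited, so the sign of Notch2 in that pool depended on the scaling.

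Notch1, the receptor studied most widely in epithelial cell fate, showed the largest spread. Probe set 1418634_at read 4.13, 8.06 and 5.01 in ALDH-negative cells of pools 1 to 3 and 4.52, 3.73 and 4.81 in ALDH-positive cells. The single reading of 8.06 lay 3.05 above the highest of the other 5 arrays, which overlapped between fractions. The difference was -1.38 (SE 1.00, n = 3; limma adjusted p = 0.895), and 0.10 without pool 2 (SE 0.42, 95% interval -0.94 to 1.13). The second probe set of Notch1 (1418633_at) read 2.28, 4.74 and 3.37 in the ALDH-negative fraction and 3.59, 2.93 and 3.97 in ALDH-positive cells. Its pool differences were 1.30, -1.81 and 0.59, with a mean of 0.03. Without pool 2 its difference of 0.95 was the highest of the 15 (SE 0.42, 95% interval -0.11 to 2.01), with an unadjusted p of 0.070 and an adjusted p of 0.909 by limma. The ALDH-negative reading of pool 1 behind it lay under the filter level, and the brighter probe set of the same gene did not show such a difference.

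Notch3, the receptor of mural cells, was the gene of the 9 whose fractions did not overlap after quantile normalization. As deposited this was so for Notch3 and Heyl, and in median-centred arrays for neither. The share of all probe sets doing so was not counted in those scalings. Probe set 1421964_at read 4.06, 4.30 and 4.51 in ALDH-negative cells of pools 1, 2 and 3, and 4.01, 3.77 and 3.27 in ALDH-positive cells. All ALDH-positive arrays thus lay under all ALDH-negative ones, a pattern that 3.4% of all tested probe sets showed in this direction, and the smallest gap between the fractions was the 0.05 within pool 1. The difference was -0.61 (SE 0.66, n = 3; limma adjusted p = 0.895), and -0.65 without pool 2 (SE 0.47, 95% interval -1.83 to 0.53). The pools gave -0.05, -0.53 and -1.25, so most of the mean came from pools 2 and 3. The second probe set, 1421965_s_at, whose suffix marks probes shared by more than 1 transcript, read 3.67, 3.61 and 3.16 in the ALDH-negative fraction and 3.34, 2.93 and 3.29 in ALDH-positive cells. Its fractions overlapped, and its difference was -0.29 (SE 0.64; adjusted p = 0.927), or -0.09 without pool 2.

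The promoters of Notch2 and Notch3 are shown because Notch2 was the receptor whose pool 2 difference changed sign with the scaling, and Notch3 the receptor whose fractions did not overlap after quantile normalization. Windows of 300 bases, 250 before to 50 after the transcription start, were taken from RefSeq (mouse build GRCm38.p6), which matched 6 of the 9 genes in 7 windows; Hes1, Hey1 and Heyl were not matched. The Notch2 window is chr3:98013288-98013587 on the plus strand and the Notch3 window chr17:32166841-32167140 on the minus strand. Both are written 5′ to 3′ on the gene's strand, with capitals marking the GC box GGGCGG, a binding sequence of Sp1-type factors, on either strand.
Notch2: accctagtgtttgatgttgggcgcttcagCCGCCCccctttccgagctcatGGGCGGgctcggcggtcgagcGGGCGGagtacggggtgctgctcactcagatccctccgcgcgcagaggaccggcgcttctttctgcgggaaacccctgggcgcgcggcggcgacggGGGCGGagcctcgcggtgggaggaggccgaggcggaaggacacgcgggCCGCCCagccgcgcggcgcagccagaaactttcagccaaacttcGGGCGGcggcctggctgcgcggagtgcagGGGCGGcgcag
Notch3: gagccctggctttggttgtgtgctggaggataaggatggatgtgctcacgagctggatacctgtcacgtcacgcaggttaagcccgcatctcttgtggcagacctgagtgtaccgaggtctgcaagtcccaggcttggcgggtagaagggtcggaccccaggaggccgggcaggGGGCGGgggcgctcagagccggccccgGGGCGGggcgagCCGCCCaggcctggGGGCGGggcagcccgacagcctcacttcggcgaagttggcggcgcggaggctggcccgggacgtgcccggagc
Notch2 holds 7 GC boxes and Notch3 holds 4. Their GC contents are 73.0% and 70.0%, against a median of 52.7% over all 32851 windows of this length. Among the member windows 4 of 7 hold a GC box, against 35.7% of all windows. The RBPJ core TGGGAA, searched on both strands, occurs in none of the 7 member windows and in 25.6% of all windows. The TATA box TATAAA occurs in none of the 7 and in 13.6% of all. These are matches of letters in a fixed window, and no binding was measured.

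Of the ligands, Jag1 was measured by 3 tested probe sets, which all lay lower in the mean over 3 pools and differed in sign without pool 2. The brightest (1434070_at) read 4.27, 5.90 and 5.51 in ALDH-negative cells of pools 1 to 3 and 5.18, 5.04 and 5.38 in ALDH-positive cells. Its ALDH-positive arrays stood within 0.33 of each other, inside the wider range of the ALDH-negative arrays. In median-centred arrays they all lay above the ALDH-negative ones, but the share of all probe sets doing so was not counted in that scaling. The difference was -0.03 (SE 0.68, n = 3; limma adjusted p = 0.994), and 0.39 without pool 2 (SE 0.45, 95% interval -0.75 to 1.52). Probe set 1421106_at differed by 0.71 and 0.74 in pools 1 and 3 and by -2.39 in pool 2, with a mean of -0.31 (SE 0.83). Without pool 2 its mean was 0.72 (SE 0.40, 95% interval -0.27 to 1.72; adjusted p = 0.909). Probe set 1421105_at gave 0.32, -1.75 and -0.75 by pool, with a mean of -0.73 (SE 0.70), and -0.22 without pool 2 (SE 0.46). Without pool 2, then, 2 of the 3 probe sets of Jag1 lay above 0 and 1 below.

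Jag2, the other Jagged ligand, read 4.17, 7.07 and 5.07 in ALDH-negative cells of pools 1, 2 and 3 with probe set 1426430_at, and 4.31, 4.04 and 4.76 in ALDH-positive cells. The array of pool 2 was again the highest, by 2.01, and the remaining 5 overlapped. The difference was -1.07 (SE 0.81, n = 3; limma adjusted p = 0.895), and -0.08 without pool 2 (SE 0.41, 95% interval -1.10 to 0.94). The dimmer probe set 1426431_at gave -0.35 (SE 0.73), and 0.34 without pool 2. Dll1, a Delta ligand with a single probe set, stood only slightly above the filter level, at 2.91, 5.12 and 3.11 in the ALDH-negative fraction and 2.996, 2.89 and 3.36 in ALDH-positive cells. Outside the ALDH-negative array of pool 2, its readings spanned 0.47. The difference of Dll1 was -0.63 (SE 0.75; limma adjusted p = 0.895), and 0.17 without pool 2 (SE 0.40, 95% interval -0.83 to 1.16).

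**Figure D2:**
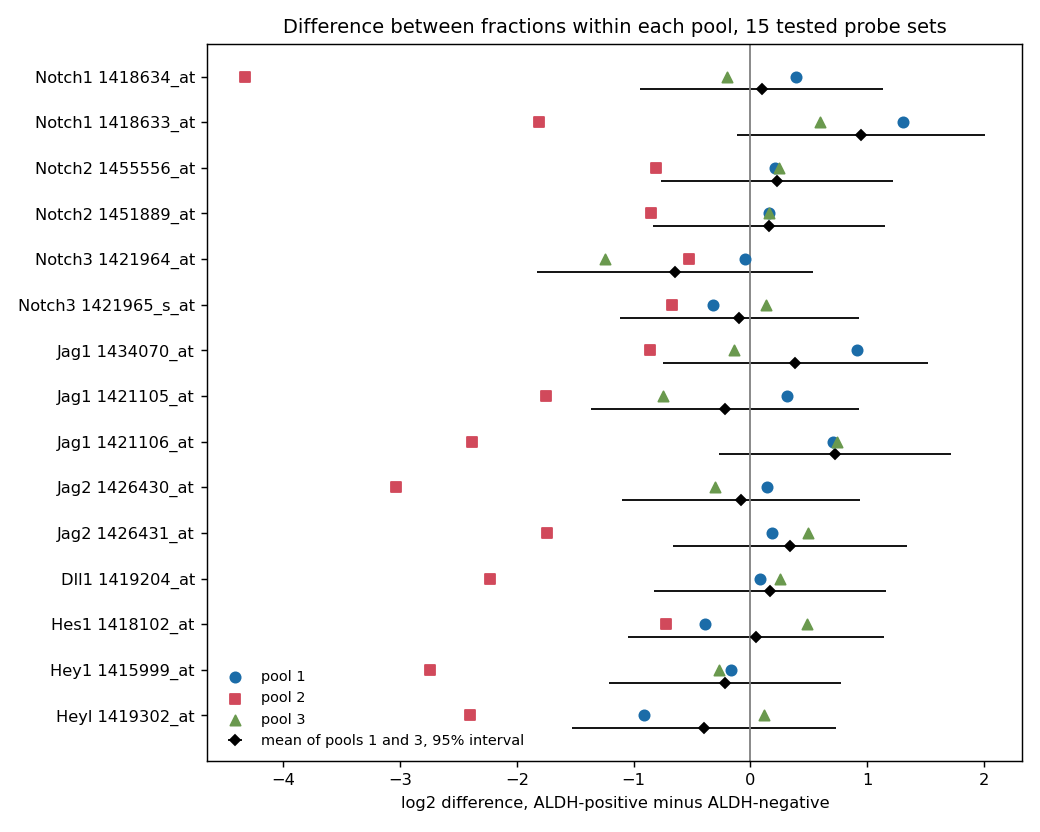
Log2 difference between ALDH-positive and ALDH-negative cells (horizontal axis) in each pool for the 15 tested probe sets of the Notch genes, with the mean of pools 1 and 3 and its 95% interval by limma in black. All 15 pool 2 values lie below 0, and each of the 15 intervals without pool 2 includes 0.

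Hes1, the most general Notch target and also a target of other pathways, differed more between pools than between fractions. It read 5.13, 5.76 and 3.50 in ALDH-negative cells of pools 1, 2 and 3, and 4.74, 5.04 and 3.99 in ALDH-positive cells. Both arrays of pool 3 were the lowest of the 6; these are the arrays of low 5' Gapdh signal, whose part in this was not tested. The difference was -0.21 (SE 0.66, n = 3; limma adjusted p = 0.946), and 0.05 without pool 2 (SE 0.44, 95% interval -1.05 to 1.14). In pool 2 the difference of Hes1 was -0.72 after quantile normalization and 0.28 as deposited.

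Hey1, a Notch target of vessels and mesenchyme, lay lower in ALDH-positive cells of every pool, as did 10.8% of all tested probe sets. Its readings were 3.82, 5.46 and 3.61 in the ALDH-negative fraction and 3.65, 2.72 and 3.34 in ALDH-positive cells. The fractions overlapped, since ALDH-positive cells of pool 1 read above ALDH-negative cells of pool 3. The pool differences of -0.17, -2.75 and -0.27 gave a mean of -1.06 (SE 0.77, n = 3; limma adjusted p = 0.895), and -0.22 without pool 2 (SE 0.40, 95% interval -1.21 to 0.77). After quantile normalization, 2 of the 15 tested probe sets lay lower in all 3 pools, the other being probe set 1421964_at of Notch3. As deposited, 1421965_s_at of Notch3, 1426430_at of Jag2 and 1419302_at of Heyl did so too. Their smallest differences there were -0.02 in pool 3, -0.005 in pool 1 and -0.02 in pool 3. The share of all probe sets lower in all 3 pools was not counted in that scaling.

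Heyl, a relative of Hey1 named above for mural cells, was dim. Its tested probe set (1419302_at) exceeded the filter level on 3 of 6 arrays. It read 3.01, 4.55 and 2.66 in ALDH-negative cells of pools 1 to 3 and 2.10, 2.14 and 2.78 in ALDH-positive cells. The fractions overlapped through pool 3, though not as deposited, where 2.78 in ALDH-negative cells of pool 3 was the lowest of that fraction and 2.75 the highest of the other. The difference was -1.07 (SE 0.74, n = 3; limma adjusted p = 0.895), and -0.40 without pool 2 (SE 0.45, 95% interval -1.53 to 0.74). The 2 other probe sets of Heyl did not pass the filter. Probe set 1419303_at read 1.44 to 2.22 over the 6 arrays, and 1438886_at exceeded the filter level only on the ALDH-negative array of pool 2, at 2.89.

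The size and, for some genes, the sign of the pool 2 difference depended on how the arrays were scaled. As deposited, the ALDH-negative array of pool 2 had a narrower distribution than the others (SD 1.62 against 2.07 to 2.42), which quantile normalization widens. Of the 15 tested probe sets, 11 lay lower in ALDH-positive cells of pool 2 as deposited and 4 higher, and the 4 were both of Notch2, the brightest of Jag1, and Hes1. The sign also differed between these scalings for 2 of the 15 in pool 1 and for 2 in pool 3. The difference of Notch1 in pool 2 was -4.33 after quantile normalization and -2.89 as deposited. The median of all genes tested moved with the scaling too, by 0.17 in the values as deposited and by 0.34 in median-centred arrays.

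**Figure D3:**
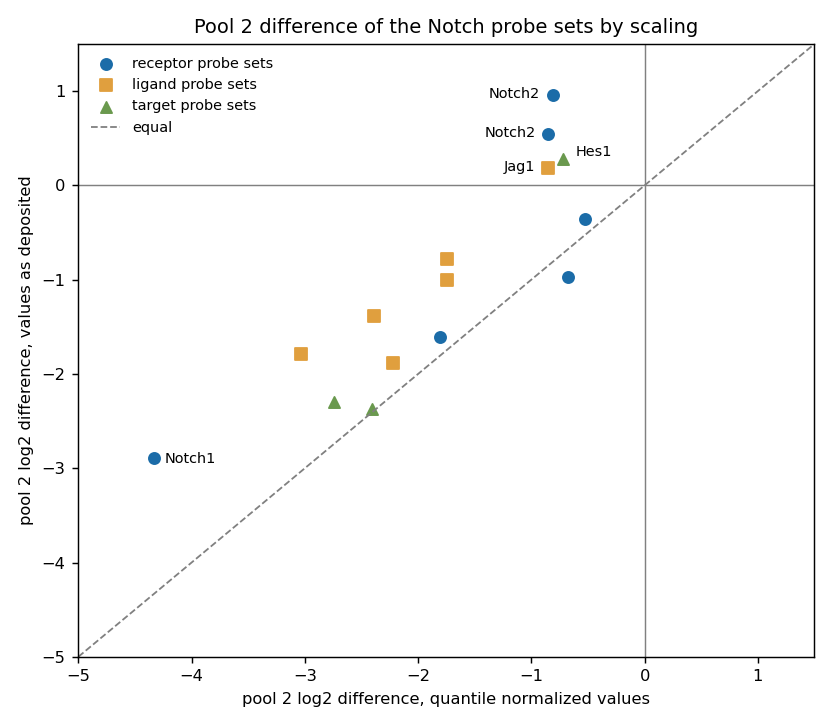
Pool 2 log2 difference of the 15 tested Notch probe sets after quantile normalization (horizontal axis) and in the values as deposited (vertical axis); the dashed line marks equal values. The 4 points above the horizontal zero line, at 0.19 to 0.96 as deposited, changed sign with the scaling.

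A list of 49 other genes of the pathway was examined in the same way. Of these, 45 were on the array and 38 were tested; 20 lay higher and 18 lower in ALDH-positive cells (21 and 17 as deposited, 24 and 14 in median-centred arrays), and none passed (0% of all probe sets passed), none with an unadjusted p under 0.05. The list's median was 0.04, beside -0.08 for all genes tested, and -0.06 without pool 2, beside 0.04. Of the 6 listed receptors and ligands, Notch4, Dll3 and Dll4 did not pass the filter. Dner, a Delta-like membrane protein, had fractions that did not overlap, as had 3.4% of all tested probe sets in this direction, with 2.97, 5.89 and 3.42 in the ALDH-negative fraction and 2.36, 1.74 and 2.36 in ALDH-positive cells. Its difference of -1.95 (SE 0.86; limma adjusted p = 0.895) was -0.84 without pool 2, and its ALDH-positive readings were all under the filter level. The related Dlk2 differed by -0.70 (SE 0.70), and by -0.31 without pool 2 (SE 0.51). Its other probe set, 1450005_x_at, gave -1.07 (SE 0.74), and -0.36 without pool 2 (SE 0.42).

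All 4 tested genes of ligand processing lay lower in the mean, also as deposited, and 3 of 4 in median-centred arrays and without pool 2. Mib1 and Mib2, the ubiquitin ligases that prepare ligands for signalling, stood at -1.14 (SE 0.71) and -1.18 (SE 0.80), and without pool 2 at -0.67 and -0.24. Neurl1b, also a ubiquitin ligase and named after its values were seen, turned from -0.75 (SE 1.06) to 0.87 without pool 2 (SE 0.44). The other tested probe sets of Mib1 were 1433853_at, at -0.66 (SE 0.65) and -0.86 without pool 2, and 1454740_at, at 1.46 (SE 0.93) with a pool 2 difference of 4.08, and at 0.15 without pool 2 (SE 0.40). Of 8 tested proteases and their partners, 4 lay higher and 4 lower, and 2 higher and 6 lower without pool 2. Psenen, a subunit of gamma-secretase, lay lower in each pool at -0.33, -1.45 and -1.43 (mean -1.07, SE 0.66; without pool 2 -0.88, SE 0.46), a pattern of 10.8% of all tested probe sets, but its pool 2 difference was 0.35 as deposited. Furin, which cuts the Notch precursor, gave -0.98 (SE 0.75), and -0.24 without pool 2. Among the 5 glycosyltransferases, which modify the receptors, Poglut1 stood at 0.52 (SE 0.77) and Mfng at -0.33 (SE 0.75). Without pool 2 both signs turned, to -0.34 (SE 0.40) and 0.44 (SE 0.40).

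In the nuclear complex 5 of 7 tested genes lay higher in the mean, and 6 of 7 as deposited and in median-centred arrays, with a median of 0.31 that was 0.03 without pool 2. The acetyltransferase Kat2b stood at 1.04 (SE 0.78) and the corepressor Spen at 0.82 (SE 0.75), and without pool 2 they stood at 0.16 and 0.03. Probe sets 1450821_at and 1457809_at of Kat2b gave 0.15 (SE 0.79) and 0.35 (SE 0.69), and -0.70 and 0.27 without pool 2. Rbpj, the DNA-binding partner of all Notch receptors, named here for that role and after its values were seen, read 6.22, 6.04 and 6.02 in the ALDH-negative fraction and 6.15, 5.03 and 7.002 in ALDH-positive cells. These overlap, and the difference was -0.03 (SE 0.70), and 0.46 without pool 2 (SE 0.46). Probe set 1418114_at of Rbpj did not overlap between fractions (3.4% of all tested probe sets in this direction), with 5.28, 5.97 and 5.47 in the ALDH-negative fraction and 4.98, 4.17 and 4.94 in ALDH-positive cells. It gave -0.87 (SE 0.68), and -0.41 without pool 2 (SE 0.40), whereas the remaining probe set 1454896_at overlapped and gave 0.74 (SE 0.73), and 0.88 without pool 2 (SE 0.64). Of 7 tested inhibitors and turnover genes, 5 lay higher and 2 lower, and 4 and 3 without pool 2. Itch, a ubiquitin ligase, stood at 1.32 (SE 0.79), with 3.09 in pool 2, and at 0.44 without pool 2 (SE 0.44). Dtx2, a Deltex protein, stood at -0.80 (SE 0.80), with -2.44 in pool 2, and at 0.02 without pool 2 (SE 0.52). Probe set 1421720_a_at of Dtx2 gave -0.13 (SE 0.70), and 0.45 without pool 2 (SE 0.40).

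Among 4 other tested targets, 3 lay higher in the mean. Myc, which also answers to many other signals, read 9.41, 3.83 and 9.51 in the ALDH-negative fraction and 9.15, 9.20 and 10.02 in ALDH-positive cells, so its difference of 1.88 (SE 1.11) was 0.12 without pool 2. Hes6 stood at 1.39 (SE 0.86), and 0.32 without pool 2. Ccnd1, which encodes cyclin D1 and is named here after its values were seen, was the listed gene whose ALDH-positive arrays all lay above the ALDH-negative ones, a pattern of 3.49% of all tested probe sets. It read 4.17, 3.14 and 3.92 in the ALDH-negative fraction and 5.02, 4.39 and 4.73 in ALDH-positive cells. The difference was 0.97 (SE 0.64; limma adjusted p = 0.895), and 0.83 without pool 2 (SE 0.40; adjusted p = 0.909). Probe sets 1417419_at and 1417420_at of Ccnd1 gave 0.44 and 0.55, and 0.82 and 0.17 without pool 2, and both overlapped between fractions.

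**Figure D4:**
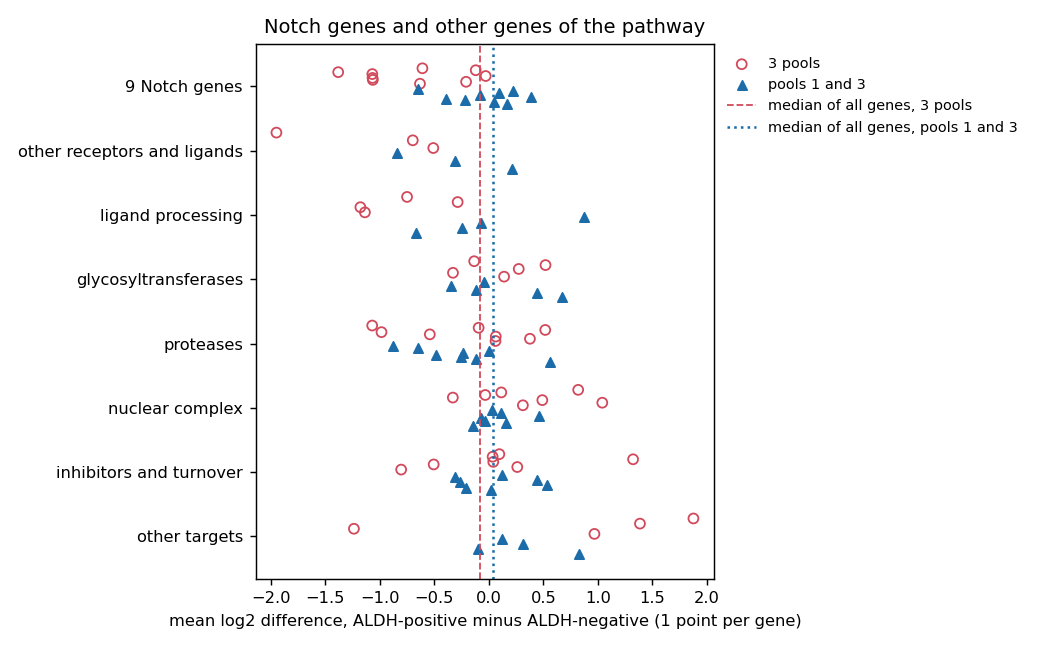
Mean log2 difference between ALDH-positive and ALDH-negative cells (horizontal axis) for the 9 Notch genes and the 38 other tested genes of the pathway by role, over 3 pools (open circles) and over pools 1 and 3 (triangles); vertical lines are the medians of all 12814 genes tested. The 9 Notch genes have a median of -0.63 over 3 pools and of 0.05 over pools 1 and 3.

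Genes whose signal ran most like that of the members were sought over the 6 arrays, with each role averaged over its 3 genes. The receptor profile was most like Asxl2, Gatc and Krtap10-4 (Pearson r = 0.998 for each), the ligand profile most like Gng4, Cdh16 and Rab3c (r above 0.999 for each), and the target profile most like Tbc1d1 (0.999), Fbxw9 (0.997) and Impdh1 (0.996). Over the 5 arrays without the ALDH-negative array of pool 2, these 9 values were between 0.965 and 0.999. The 3 role profiles shared their high point on that array, at 1.38, 1.53 and 1.48 above the mean of the genes for receptors, ligands and targets. The ranking was over all genes tested and only 6 arrays, so high values of r are what it selects.

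Markers of other ovarian cell types that express Notch genes were read beside these values. Of 8 pericyte and smooth muscle markers, 7 were tested and Rgs5 was not. The summed level of the 8 was 29.43 to 42.22 in the ALDH-negative fraction and 37.27 to 39.43 in ALDH-positive cells. The value of 42.22 came from the ALDH-negative array of pool 2, on which 37.4% of all tested probe sets were highest. The endothelial sum given below was highest on that array too. These sums are of quantile normalized values and were not taken in the other scalings. Of the 7 tested pericyte and smooth muscle markers, 3 lay higher and 4 lower in ALDH-positive cells in the mean over 3 pools. Without pool 2 all 7 lay higher, with a median of 0.62. The brightest of them, Acta2, smooth muscle actin, read 4.78 to 7.23 in the ALDH-negative fraction and 9.29 to 10.09 in ALDH-positive cells. Acta2 and Tagln were the 2 whose fractions did not overlap, as for 3.49% of all tested probe sets in this direction. Of 9 endothelial markers 5 were tested, and the vessel genes Emcn, Cdh5, Tie1 and Tek were not. The summed level of the 9 was 23.67 to 29.88 in the ALDH-negative fraction and 23.92 to 26.78 in ALDH-positive cells, and the mean difference was above 0 for 2 of the 5 and below 0 for 3. Kdr, a receptor for vascular growth factor, read 3.61 to 4.40 and 3.87 to 6.30. Eng, an endothelial receptor named after its values were seen, ran the other way, with 4.50 to 5.19 and 3.53 to 3.75.

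Of 8 granulosa markers 6 were tested. The 7 on the array summed to 26.13 to 45.06 in the ALDH-negative fraction and 37.49 to 42.12 in ALDH-positive cells, lowest on the ALDH-negative array of pool 2. Inhba, an inhibin and activin subunit, read 9.22, 5.01 and 9.20 and then 9.40, 8.89 and 8.85. Of 6 theca and luteal markers 3 were tested. The 4 on the array summed to 17.91 to 31.76 and 28.09 to 30.06, again lowest on the ALDH-negative array of pool 2. Leukocyte markers, 3 of 6 tested, summed to 16.33 to 21.72 and 12.79 to 19.80, and Csf1r, a macrophage receptor, was brightest in pool 3 at 8.18 and 8.06. Stroma markers, 5 of 6 tested, summed to 22.93 to 31.03 and 33.05 to 36.10, with the collagen gene Col1a1 at 4.80 to 7.69 and 8.43 to 9.08. The part of these cell types in the Notch values was not tested.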

How the data were processed

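Per the labels' protocols, RNA was isolated with the mirVana kit, amplified with the Ovation Pico WTA System V2 and labelled with biotin; the series design names GeneSifter and a paired analysis of pools. The authors deposited 1 value per probe set and array, taken as log2 signal from its range; how they were summarised and normalized is not given in the sources used here. After 64 control probe sets were removed, values were quantile normalized and the lowest 40% of probe sets by mean removed, leaving 27022. Symbols came from GEO's platform annotation, checked by Entrez identifier. A linear model per probe set was fitted in limma 3.58.1 (R 4.3.3, lmFit and eBayes) with fraction and pool as terms, and p-values were adjusted by Benjamini-Hochberg over all 27022; the code was tested on simulated data. After subtraction of group means, arrays of the same number correlated at 0.34, -0.19 and 0.31 across probe sets, so the pairing rests on the series design. All 9 genes are named, with up to 2 genes of smallest p per pathway role, the brightest marker per cell type and the 3 genes most like each role. Members, lists and tests were chosen with earlier results of these data known. No arrays were imputed.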

Additional observations from a re-analysis of the deposited data

How the results depend on the processing

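In every alternative run, no Notch gene and no gene of the pathway list passed the threshold, and Notch3, Hey1, Heyl and Jag2 stayed below 0. Over all probe sets, 0 passed (0%) in every run except those with array weights and without pool 1. With array weights 2953 probe sets passed (10.9%), where pool 2 weighed 0.16, pool 1 1.30 and pool 3 4.87; the lowest adjusted p of a Notch gene there was 0.115 (Notch3, -0.98). Leaving out 1 pool at a time gave 0 to 7 passing probe sets, the 7 without pool 1 (0.0259%). Signs turned for 5 genes. As deposited, Jag1 stood at 0.33 and Notch2 at 0.54. In median-centred arrays Jag1 stood at 0.50, Notch2 at 0.71 and Hes1 at 0.13. With array weights Dll1 stood at 0.15, Hes1 at 0.27, Jag1 at 0.059 and Notch2 at 0.21. Without the ALDH-negative array of pool 2 and without the block, Dll1 stood at 0.071, Hes1 at 0.27, Jag1 at 0.31 and Notch2 at 0.25. With quantile normalization over the other 5 arrays and without pool 2, chosen after seeing the data, Dll1 stood at 0.18, Hes1 at 0.052, Jag1 at 0.42, Notch1 at 0.10 and Notch2 at 0.23, and Heyl did not pass the filter. The cause was not tested. Leaving out 1 pool at a time, differences ran from -1.07 to 0.17 for Dll1, -0.55 to 0.048 for Hes1, -0.50 to 0.39 for Jag1, -2.26 to 0.10 for Notch1 and -0.30 to 0.23 for Notch2. The median of the pathway list was 0.31 as deposited, 0.47 in median-centred arrays, -0.050 with array weights, -0.059 in the 5-array scaling and -0.060 to 0.082 with 1 pool left out. Without the replicate block, 0 probe sets passed and no sign turned. Signal near the filter level limits Heyl and Dll1.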
